A study of Homo sapiens with 8 samples.

Results

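The IL6 cytokine family and its receptors were followed at the mRNA level in BT-549, an established triple negative breast cancer (TNBC) cell line. The 10 genes described were chosen by symbol, 5 ligands (LIF, IL6, IL11, CLCF1 and CTF1) and 5 receptors (LIFR, IL6ST, OSMR, IL6R and CNTFR), among the 23228 genes counted in each library. Cells received vehicle (DMSO), EC359 at 100 nM, vorinostat at 10 µM, or EC359 and vorinostat together at those doses, each for 24 h, and 2 libraries were sequenced from each group, 8 altogether. EC359 is an inhibitor of LIFR, and vorinostat (SAHA) is a histone deacetylase inhibitor (HDACi). The study asked how blocking LIFR changes the transcriptional response to an HDACi, and these libraries bear on 1 cell line, 1 dose of each drug and 1 time point.

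The cytokines of this family are secreted proteins that signal through gp130, the receptor subunit encoded by IL6ST. LIF and cardiotrophin-1 (CTF1) bring gp130 together with LIFR, oncostatin M joins gp130 to OSMR or LIFR, and IL6 and IL11 first bind their own receptors, IL6R and IL11RA, which then engage gp130. CLCF1 acts through CNTFR, LIFR and gp130. The assembled receptors activate JAK kinases and STAT3, and STAT3 in turn induces SOCS3, which damps the signal. In breast cancer cells this pathway is known for its part in survival and self-renewal.

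Counts on genes ranged from 19069450 to 24759041 per library. Levels are given as normalized CPM, each gene's counts scaled to a common library total by TMM, and as RPKM (normalized CPM per kb of the canonical transcript) where genes are compared with each other. Differences were tested with edgeR's quasi-likelihood test over all 13694 genes that passed a filter on low counts, with an adjusted p under 0.01 and a log2 fold change beyond 1 in either direction needed for a call. SE is the standard error of the log2 fold change. All 10 genes passed the filter, IL11 only through the libraries that received vorinostat, in which it had 8 to 13 counts. The cells carried the mesenchymal marker VIM at 2056 to 9438 normalized CPM, ESR1 and PGR did not exceed 1.02 and 0.0510 normalized CPM, and ERBB2, the third receptor gene by which TNBC is typed, ranged from 12.02 to 102. The libraries were numbered 1 and 2 within a group, and nothing says that they came from separate cultures. The p values thus measure the spread between these libraries, which may be technical. The EC359 libraries differed most from each other. The standard deviation over genes of their log2 difference was 0.563, against 0.349 in vehicle, 0.312 in vorinostat and 0.448 in the combination. The fit shared 1 estimate of the spread of a gene over all groups.

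In vehicle-treated cells OSMR and gp130 were the highest of the 5 receptors, and LIFR was far lower. Outside the 5, IL11RA had 16.1 and 19.0 RPKM in the vehicle libraries and IL27RA had 5.09 and 4.94, both above LIFR. OSMR, the oncostatin M receptor subunit, had 30.2 and 27.0 RPKM in the vehicle libraries, and IL6ST had 25.0 and 23.5. LIFR had 2.21 and 2.66 RPKM, CNTFR 2.89 and 2.59, and IL6R 0.622 and 0.462. Among the ligands CLCF1 (7.17 and 6.68 RPKM), LIF (6.53 and 5.48) and IL6 (4.73 and 4.81) lay close together, CTF1 had 2.76 and 2.10, and IL11 had 1 count in each library. The order of the receptors by RPKM was the same in both vehicle libraries for OSMR, IL6ST and IL6R, and LIFR and CNTFR exchanged places.

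**Figure D1:**
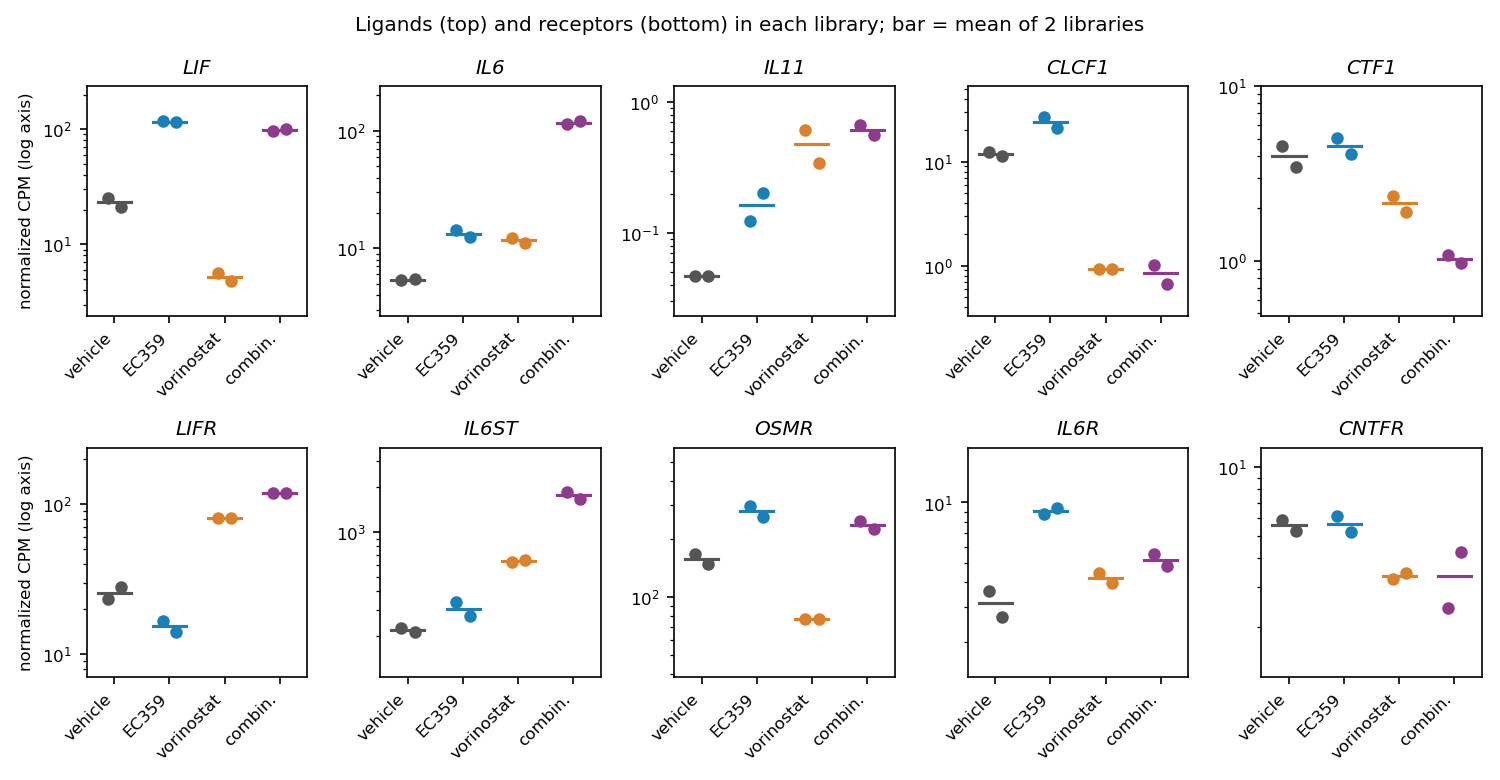
Normalized CPM (log axis) of the 5 ligands (top) and 5 receptors (bottom) in each library. Points are single libraries and bars are group means of 2 libraries. LIF is high in both EC359 groups and lowest under vorinostat, IL6 stands at 114 and 120.3 in the combination, and LIFR and IL6ST climb from vehicle through vorinostat to the combination.

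LIF, the ligand that gives LIFR its name, moved in opposite directions under the 2 drugs. The gene lies on the minus strand of chromosome 22, from 30636442 to 30642748 on GRCh37 (the build that hg19 shares). LIF stood at 25.3 and 21.2 normalized CPM under vehicle, 119 and 114 under EC359, 5.60 and 4.80 under vorinostat, and 95.9 and 101 under the combination. No library of a group overlapped with those of another, and the vorinostat libraries were the lowest and the EC359 libraries the highest. LIF rose by a log2 fold change of 2.32 under EC359 (SE 0.12, edgeR adjusted p = 5.2e-06) and fell by 2.16 under vorinostat (SE 0.13, edgeR adjusted p = 1.7e-06). When EC359 was added to vorinostat, LIF rose 18.9-fold, a log2 fold change of 4.24 (SE 0.14, edgeR adjusted p = 2.4e-07), the 13th largest increase among the 462 genes called higher in that comparison. The combination and EC359 alone are neighbours in the order of LIF levels, with a log2 fold change of -0.24 and a 95% interval from -0.50 to 0.01 (adjusted p = 0.079). Fewer cells with LIF mRNA and less LIF mRNA per cell cannot be told apart in bulk libraries such as these.

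IL6, the cytokine that gives the family its name, rose under each drug and most under both. It lies on chromosome 7 from 22765503 to 22771621 on the plus strand. Its normalized CPM was 5.33 and 5.42 under vehicle, 14.3 and 12.4 under EC359, 12.3 and 11.2 under vorinostat, and 114 and 120.3 under the combination. The EC359 and vorinostat libraries lay next to each other without overlap (log2 fold change of vorinostat against EC359 -0.19, 95% interval -0.46 to 0.09), and the combination libraries stood far above all others. IL6 rose by 1.31 on the log2 scale under EC359 (SE 0.13, edgeR adjusted p = 2.2e-04), 1.13 under vorinostat (SE 0.13, edgeR adjusted p = 7.4e-05) and 4.44 under the combination (SE 0.13, edgeR adjusted p = 3.7e-08). Against vorinostat alone the combination held 9.96-fold more IL6 mRNA, the 35th largest of the 462 increases. In a fit of the vehicle and EC359 libraries alone, the adjusted p of IL6 under EC359 was 0.014, above the threshold of 0.01.

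CLCF1, a ligand of the CNTFR complex, was raised by EC359 and lowered strongly by vorinostat with or without EC359. It had 12.2 and 11.4 normalized CPM under vehicle, 26.5 and 21.1 under EC359, 0.925 and 0.935 under vorinostat, and 1.02 and 0.664 under the combination, so that the vorinostat and combination libraries overlapped and lay below all others. CLCF1 differed from vehicle by 1.01 on the log2 scale under EC359 (SE 0.18, edgeR adjusted p = 0.0049), -3.66 under vorinostat (SE 0.24, edgeR adjusted p = 2.1e-06) and -3.80 under the combination (SE 0.24, edgeR adjusted p = 1.4e-06). The rise under EC359 stood close to both thresholds. It was lost without EC359 library 1 (log2 fold change 0.84) and, by an adjusted p of 0.014 to 0.066, without either vehicle library or either vorinostat library. It was also lost under total counts in place of TMM (log2 fold change 0.996) and in a fit of the vehicle and EC359 libraries alone (adjusted p = 0.028). Both falls were called in all 16 alternatives, and the combination against vorinostat had a log2 fold change of -0.14 (95% interval -0.86 to 0.58).

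CTF1 and IL11 were the least abundant ligands in vehicle by RPKM of the canonical transcripts. CTF1, cardiotrophin-1, had 4.53 and 3.46 normalized CPM under vehicle, 5.03 and 4.11 under EC359, 2.36 and 1.91 under vorinostat and 1.07 and 0.970 under the combination. It fell under the combination, by 1.96 on the log2 scale (SE 0.29, edgeR adjusted p = 2.8e-04), while its log2 fold change under vorinostat alone was -0.90 with an adjusted p of 0.014. IL11, a gp130 cytokine that breast cancer cells can secrete, had 1 and 1 counts under vehicle, 3 and 4 under EC359, 12 and 8 under vorinostat, and 13 and 11 under the combination. The ratio of its summed normalized counts to vehicle was 9.91 under vorinostat, with a 95% counting interval of 2.41 to 87.5, and 13.1 under the combination, with an interval of 3.24 to 114. For EC359 the ratio was 3.39 and its interval, 0.646 to 33.5, included 1. These intervals are exact, hold for counting error only, and rest on 2 counts in vehicle. IL11 passed the filter only through the libraries that received vorinostat, so its calls in those groups are not independent of the filter. IL11 was called under vorinostat (adjusted p = 0.0089) and under the combination (adjusted p = 0.0039), but the call under vorinostat was lost in 12 of 14 alternatives, with adjusted p between 0.011 and 0.083 in those, among them without any one of the 8 libraries. Under the combination it was lost in 8 of 15, among them without either library of vehicle, vorinostat or the combination (adjusted p 0.012 to 0.039).

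The receptors responded in another order, with LIFR and IL6ST raised by vorinostat and OSMR lowered. Their promoters, and that of IL6, are printed here to compare the 2 receptors that rose under vorinostat with the 1 that fell, and with IL6, which rose under each drug. Each sequence is the 250 bases before the transcription start in the RefSeq promoter table (made on GRCh38.p14), found at a single place in GRCh37 by an exact match and given 5′ to 3′ on the gene's strand. Capitals mark the GC box GGGCGG, or its reverse complement CCGCCC, and in IL6 the NF-kB motif. The windows are, for LIFR, chr5:38556749-38556998 on the minus strand, for IL6ST, chr5:55290792-55291041 on the minus strand, for OSMR, chr5:38845864-38846113 on the plus strand, and for IL6, chr7:22766569-22766818 on the plus strand.
LIFR: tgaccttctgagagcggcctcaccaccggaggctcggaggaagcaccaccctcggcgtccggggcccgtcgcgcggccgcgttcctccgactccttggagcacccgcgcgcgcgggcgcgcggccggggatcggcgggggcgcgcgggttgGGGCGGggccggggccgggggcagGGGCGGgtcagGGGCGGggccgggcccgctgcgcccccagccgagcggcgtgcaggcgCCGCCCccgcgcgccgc
IL6ST: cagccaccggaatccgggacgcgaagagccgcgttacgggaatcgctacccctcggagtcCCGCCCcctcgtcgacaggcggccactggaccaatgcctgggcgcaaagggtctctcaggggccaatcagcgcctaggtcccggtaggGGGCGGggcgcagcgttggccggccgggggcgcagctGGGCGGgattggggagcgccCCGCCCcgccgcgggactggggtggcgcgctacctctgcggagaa
OSMR: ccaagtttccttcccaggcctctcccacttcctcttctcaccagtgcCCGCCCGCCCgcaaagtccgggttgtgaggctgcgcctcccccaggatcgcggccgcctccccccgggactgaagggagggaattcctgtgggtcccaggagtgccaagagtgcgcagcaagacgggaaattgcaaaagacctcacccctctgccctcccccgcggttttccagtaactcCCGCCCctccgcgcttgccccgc
IL6: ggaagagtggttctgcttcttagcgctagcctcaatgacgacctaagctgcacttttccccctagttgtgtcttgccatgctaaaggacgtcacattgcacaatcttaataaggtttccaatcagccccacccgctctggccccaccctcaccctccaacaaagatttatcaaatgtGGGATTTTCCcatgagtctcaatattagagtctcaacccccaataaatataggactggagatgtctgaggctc

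The printed receptor windows were rich in G and C, at 83.6% for LIFR, 73.6% for IL6ST and 66.4% for OSMR. The median over the 35116 promoter windows of the table was 58%, and the IL6 window had 47.6%. LIFR and IL6ST each held 4 GC boxes and OSMR held 3, overlapping matches counted separately, and 42.6% of all windows held at least 1 on either strand. Both the receptors that rose and the receptor that fell under vorinostat thus carried this motif. IL6 held 1 NF-kB motif, ending 64 bases before the start, as did 1.73% of all windows. The AP-1 motif TGANTCA (6.57% of all windows), the STAT motif TTCNNNGAA (6.57%), the cAMP response element TGACGTCA (1.65%) and the TATA motif TATAAA (10.7%) were searched on both strands too. The IL11 window held 1 AP-1 motif, and none of these motifs was in the 4 printed windows. RefSeq gives LIFR a further pair of starts, 821 and 38759 bases upstream of the start site of its printed window. The windows of these starts each held 1 STAT motif. The window of the start 821 bases upstream also held 2 overlapping matches of the TATA motif, the nearer ending 195 bases before that start. Gene counts do not separate the LIFR starts or its soluble form. LIF, CLCF1 and CTF1 had no entry in the promoter table.

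LIFR, the target of EC359, lies on the minus strand of chromosome 5 from 38474770 to 38608456. The normalized CPM was 23.4 and 28.0 under vehicle, 16.7 and 14.0 under EC359, 80.3 and 81.0 under vorinostat, and 118 and 119 under the combination. The 4 groups did not overlap and EC359 was the lowest. Vorinostat alone raised LIFR 3.14-fold, by 1.65 on the log2 scale (SE 0.12, edgeR adjusted p = 4.6e-06). LIFR rose 4.62-fold under the combination, a log2 fold change of 2.21 (SE 0.12, edgeR adjusted p = 6.7e-07). Under EC359 alone its log2 fold change was -0.74 (SE 0.13, edgeR adjusted p = 0.0046), which met the adjusted p but not the fold threshold. That adjusted p was over 0.01 when any library of vehicle, vorinostat or the combination was left out (0.014 to 0.062), and 0.075 in a fit of the vehicle and EC359 libraries alone.

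IL6ST, which encodes gp130, rose with vorinostat and had the highest RPKM of the 5 receptors in the libraries that received it. It lies on chromosome 5 from 55230923 to 55290850, on the minus strand. Its normalized CPM was 225 and 212 under vehicle, 339.7 and 272 under EC359, 624 and 645 under vorinostat, and 1835 and 1668 under the combination. The groups did not overlap, and both combination libraries exceeded every other library by a wide margin. IL6ST rose by a log2 fold change of 1.54 under vorinostat (SE 0.11, edgeR adjusted p = 4.5e-06), and 1.46 when EC359 was added to vorinostat (SE 0.11, edgeR adjusted p = 4.2e-05). Against vehicle the combination raised it further, with a 95% interval of the log2 fold change from 2.73 to 3.27 (edgeR adjusted p = 1.1e-07). EC359 alone gave a log2 fold change of 0.48, with an adjusted p of 0.019.

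OSMR, the neighbour of LIFR on chromosome 5, was lowered by vorinostat and higher again when EC359 was added. It lies from 38845960 to 38945698 on the plus strand, 237.5 kb from LIFR, and had 167 and 149 normalized CPM under vehicle, 296 and 259 under EC359, 77.5 and 77.3 under vorinostat, and 247 and 225 under the combination. The vorinostat libraries were the lowest and the EC359 libraries the highest, without overlap between groups. OSMR fell by 1.03 on the log2 scale under vorinostat (SE 0.11, edgeR adjusted p = 3.1e-05) and rose by 1.61 when EC359 was added to vorinostat (SE 0.11, edgeR adjusted p = 2.0e-05). Without vehicle library 1 the log2 fold change under vorinostat was -0.96, inside the fold threshold. EC359 alone gave 0.81 (SE 0.10, edgeR adjusted p = 8.9e-04), under the fold threshold. OSMR shares 229 exon bases with RICTOR on the opposite strand, and whether HTSeq used the strand of the reads is not given in the sources used here. RICTOR itself had log2 fold changes of 1.07 with EC359, 0.15 with vorinostat and 0.84 when EC359 was added to vorinostat, and its part in the OSMR counts was not tested. LIF, IL6, LIFR and IL6ST each share between 83 and 797 exon bases with antisense lncRNAs of GENCODE that have no row of their own in the counts, and IL6 shares 46 with STEAP1B, which had 5 to 40 counts in a library. Without the strand setting, reads of a gene and of an antisense lncRNA without a row cannot be told apart where they overlap. How reads shared with RICTOR or STEAP1B were counted is not known.

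IL6R and CNTFR, the subunits that recognize IL6 and the CNTF-like ligands, were low. IL6R had 3.59 and 2.66 normalized CPM under vehicle, 8.78 and 9.43 under EC359, 4.42 and 3.95 under vorinostat, and 5.53 and 4.80 under the combination. EC359 raised it by a log2 fold change of 1.54 (SE 0.21, edgeR adjusted p = 0.0012), a call lost without vehicle library 2 (log2 fold change 1.35, adjusted p = 0.021) and in a fit of the vehicle and EC359 libraries alone (adjusted p = 0.017). Its other comparisons with vehicle did not pass, at 0.42 under vorinostat (adjusted p = 0.12) and 0.72 under the combination (adjusted p = 0.014). CNTFR had 5.90 and 5.28 under vehicle, 6.10 and 5.22 under EC359, 3.24 and 3.44 under vorinostat, and 2.40 and 4.24 under the combination. It was called in none of these comparisons, with log2 fold changes of 0.02, -0.74 and -0.75 against vehicle (adjusted p = 0.97, 0.035 and 0.033). Without combination library 2 the last was -1.27 (adjusted p = 0.0044).

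**Figure D2:**
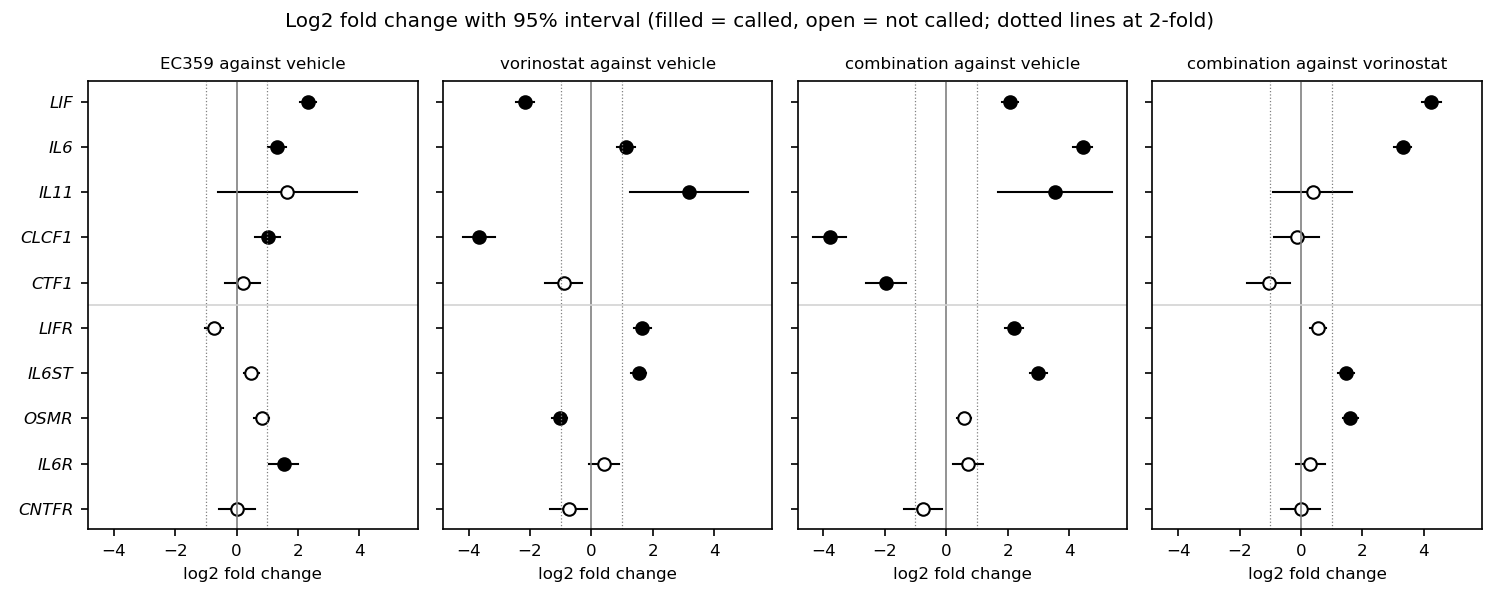
Log2 fold change of each gene with its 95% interval in 4 comparisons, ligands above the grey line and receptors below it. Filled points are called, open points are not, and dotted lines mark the fold threshold. Of the genes with an adjusted p under 0.01 for both single drugs, LIF, CLCF1 and OSMR lie to the right under EC359 and to the left under vorinostat, LIFR lies the other way round, and LIF and IL6 lie farthest to the right when EC359 is added to vorinostat.

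By count, 4 of the 10 genes were called under EC359, all higher (LIF, IL6, CLCF1 and IL6R), where 3.67% of all tested genes were called, 1.94% higher and 1.72% lower. Vorinostat called 7, LIF, CLCF1 and OSMR lower and IL6, IL11, LIFR and IL6ST higher, where 30.1% of all genes were called, 16.8% higher and 13.3% lower. The combination against vehicle also called 7, with CLCF1 and CTF1 lower and LIF, IL6, IL11, LIFR and IL6ST higher, where the share of all genes was 34.8%, 19.5% higher and 15.3% lower. Without IL11 these counts were 4, 6 and 6 of 9. The median log2 fold change of the 10 was 0.91 with EC359, -0.16 with vorinostat and 1.40 with both drugs, beside -0.02, 0.03 and 0.07 over all tested genes. Without IL11 it was 0.81, -0.74 and 0.72. These 3 comparisons share the vehicle libraries, so their counts are not independent of each other.

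Adding EC359 to vorinostat called 4 of the 10 genes, LIF, IL6, IL6ST and OSMR, all higher, where 4.25% of all genes were called, 3.37% higher and 0.876% lower. LIFR had 0.56 in this comparison (SE 0.12, edgeR adjusted p = 0.0082), under the fold threshold, and the adjusted p was 0.061 to 0.100 when a library of either group was left out and over 0.01 under RLE (0.012) and total counts (0.014). IL6R, CNTFR, CLCF1 and IL11 had adjusted p of 0.31 or more, and CTF1 had a log2 fold change of -1.06 with an adjusted p of 0.032. The median of the 10 was 0.47, beside -0.01 over all tested genes. Under total counts in place of TMM the median over all genes was -0.10, and the same 4 genes were called. Adding vorinostat to EC359 called 5 of the 10, where 33.7% of all genes were called, 19.8% higher and 13.9% lower. IL6 (3.13), LIFR (2.95) and IL6ST (2.52) were higher on the log2 scale and CLCF1 (-4.81) and CTF1 (-2.16) lower, while LIF (-0.24, adjusted p = 0.079) and OSMR (-0.23, adjusted p = 0.071) did not pass. Vorinostat against EC359, used to order the groups, called 7 of the 10, where the share over all genes was 33.6%, 19.0% higher and 14.6% lower.

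Whether both drugs together gave more than the sum of their single changes was tested as the interaction on the log2 scale. The interaction passed an adjusted p of 0.01 in LIF, IL6, LIFR and IL6ST, 4 of the 10, all above the sum, where 2.10% of all genes passed, 1.62% above it and 0.482% below. For IL6 the single changes summed to 2.44 and the combination reached 4.44, an interaction of 2.00 (SE 0.18, edgeR adjusted p = 4.1e-04). For LIF the opposite changes summed to 0.16 and the combination reached 2.08, an interaction of 1.92 (SE 0.17, edgeR adjusted p = 4.6e-04). LIFR had a sum of 0.91 and an interaction of 1.29 (SE 0.17, edgeR adjusted p = 0.0035), and IL6ST a sum of 2.02 and an interaction of 0.98 (SE 0.16, edgeR adjusted p = 0.0083). The calls of LIF and IL6 held in all 15 alternatives. Those of LIFR and IL6ST were lost without any library of vehicle, vorinostat or the combination, with adjusted p of 0.012 to 0.042 for LIFR and 0.042 to 0.077 for IL6ST. That of IL6ST was also lost under RLE normalization (0.93, adjusted p = 0.012).

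OSMR had an interaction of 0.80 with an adjusted p of 0.015, and passed in 5 of the 15 alternatives, DESeq2 (adjusted p = 8.5e-04) and leaving out either EC359 library (3.0e-04 and 0.0015) among them. The interactions of IL6R (-1.24), CTF1 (-1.25) and CLCF1 (-1.15) lay below the sum and did not pass (adjusted p = 0.041, 0.10 and 0.10). For IL6R the changes under EC359 and vorinostat summed to 1.96, and the combination had 0.72.

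**Figure D3:**
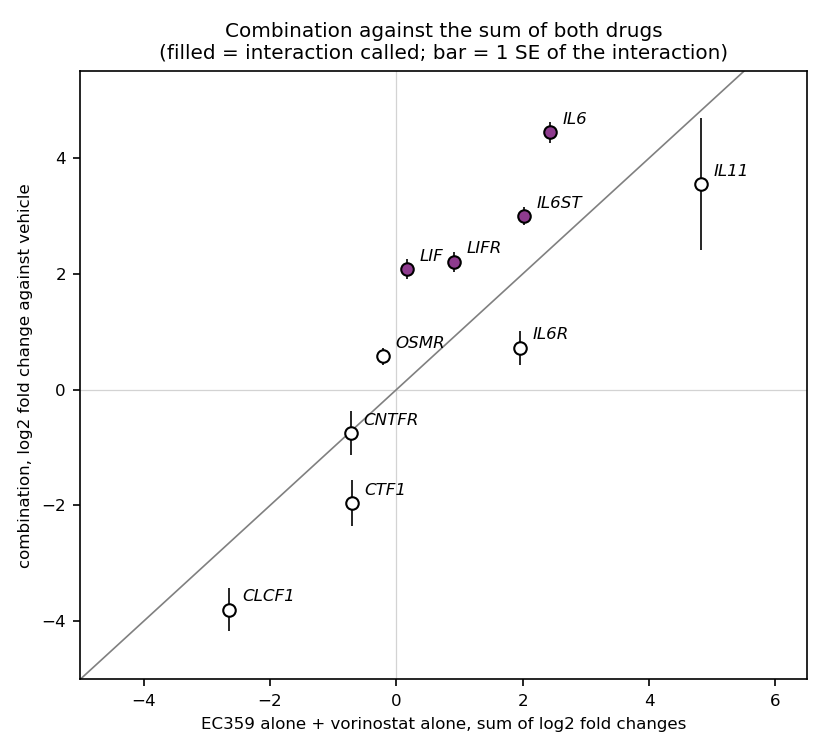
Log2 fold change of the combination against vehicle (vertical axis) by the sum of the changes under EC359 alone and vorinostat alone (horizontal axis), 1 point per gene, with bars of 1 standard error of the interaction. On the diagonal the combination equals the sum. LIF, IL6, LIFR and IL6ST (filled) lie above it, by 1.92, 2.00, 1.29 and 0.98.

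Per length, the makeup of the ligand mRNA changed with each treatment. The 5 ligands summed to 19.1 to 21.2 RPKM under vehicle, 55.5 to 62.0 under EC359, 13.0 to 14.6 under vorinostat and 127 to 134 under the combination. In vehicle no ligand exceeded 35.0% of this sum, with CLCF1 at 33.8% to 35.0%, LIF at 28.7% to 30.8% and IL6 at 22.3% to 25.2%. LIF made up 49.4% to 53.2% under EC359. IL6 made up 74.8% to 76.2% under vorinostat and 79.3% to 79.7% under the combination, where CLCF1 was at 0.290% to 0.471% and LIF at 19.4% to 19.5%. The EC359 groups thus had the larger ligand sums, with LIF leading under EC359 alone and IL6 leading under the combination. These sums and shares, and the place of IL6 among the ligands in vehicle, rest on the length taken for IL6, whose canonical transcript has 1127 bases while the exons of all its transcripts cover 4321. With the exons of all transcripts, a choice made after seeing the data, the ligands summed to 15.1 to 17.2 RPKM under vehicle, 46.5 to 51.5 under EC359, 5.63 to 6.48 under vorinostat and 52.6 to 55.0 under the combination, so that the combination stood close to EC359 alone. CLCF1 then made up 38.7% to 41.2% and LIF 36.4% to 38.0% in vehicle, and CLCF1 7.78% to 9.05% under vorinostat. IL6 made up 7.18% to 8.33% of the sum under vehicle, 6.16% to 6.43% under EC359, 44.1% to 46.0% under vorinostat and 50.1% to 50.6% under the combination, and LIF made up 47.1% to 47.3% under the combination. IL6 still led under vorinostat and the combination on that length, the latter by a narrow margin over LIF.

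Among the receptors the balance lay further toward gp130 in the groups that received vorinostat and further toward OSMR under EC359 alone. The OSMR to IL6ST ratio of RPKM was 1.15 and 1.21 in the vehicle libraries, 1.43 and 1.56 under EC359, 0.196 and 0.203 under vorinostat, and 0.220 and 0.221 under the combination. LIFR against OSMR, both of which pair with gp130, went from 0.0733 and 0.0984 under vehicle to 0.0284 and 0.0296 under EC359, 0.543 and 0.549 under vorinostat, and 0.250 and 0.278 under the combination. LIFR remained below OSMR per length in all 8 libraries. LIFR against IL6ST was 0.0887 and 0.113 under vehicle, 0.107 and 0.110 under vorinostat, where the libraries overlapped, and lower under EC359 (0.0421 and 0.0442) and the combination (0.0551 and 0.0613). The ratios are descriptions of mRNA and no test was made on them.

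**Figure D4:**
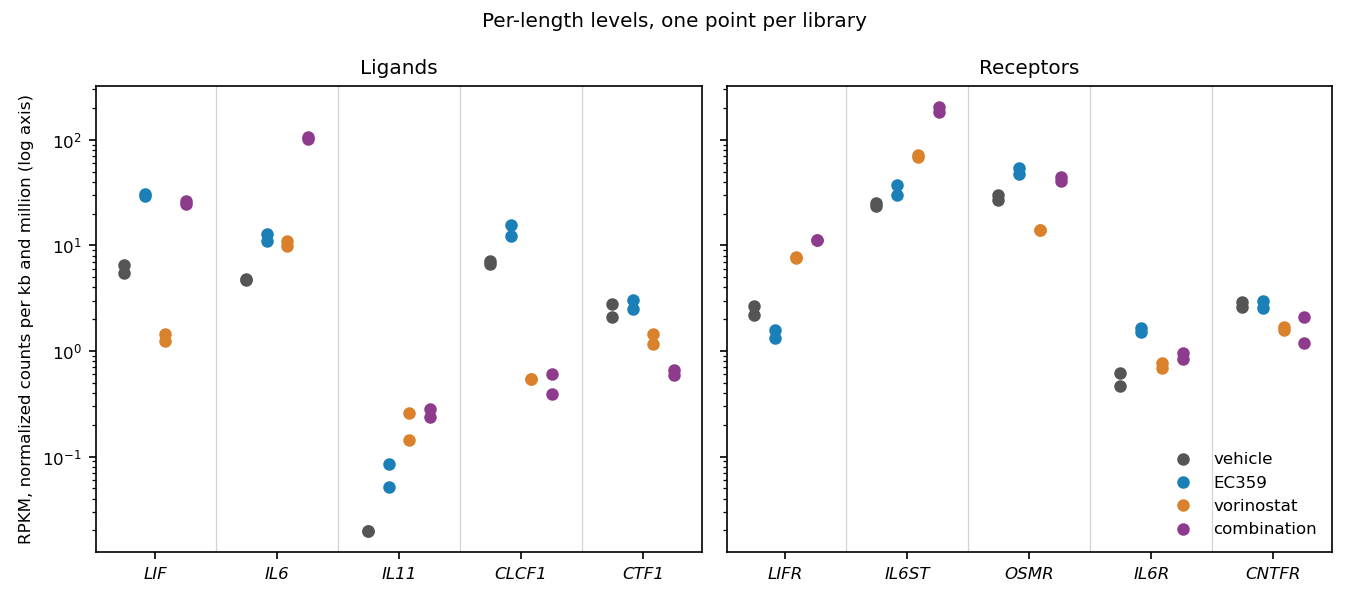
RPKM (log axis) of the 5 ligands and 5 receptors, 1 point per library, coloured by group. IL6 rises to 101 and 107 RPKM in the combination, IL6ST to 203 and 185, and CLCF1 falls to 0.600 and 0.389.

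Of 8 further genes of the family, oncostatin M and CNTF, which also use LIFR, were near the limit of detection. OSM had 0 counts in the vehicle, EC359 and combination libraries and 5 in the vorinostat libraries, and CNTF had 1, 2, 0 and 1 counts over the 2 libraries of vehicle, EC359, vorinostat and the combination. IL27 and IL31 had 0 counts in all 8 libraries, which allows up to 0.0178 CPM, from 3 counts over all the libraries. Of the 4 of these genes tested, 0 were called under EC359 by edgeR or DESeq2, where edgeR called 3.67% of all genes, with 1 (IL11RA, log2 fold change -0.88) at an unadjusted p under 0.05. Vorinostat called EBI3 higher and IL27RA lower, 2 of the 4, where 30.1% of all genes were called. EBI3, a subunit of IL27, rose by 2.49 and IL27RA fell by 1.06 on the log2 scale. EBI3 had 10 and 8 counts under vehicle, 7 and 9 under EC359, 49 and 54 under vorinostat and 41 and 51 under the combination. Like IL11, it passed the filter only through the libraries that received vorinostat, so its call is not independent of the filter. IL31RA, a receptor that pairs with OSMR, was the only one of the 4 called on adding EC359 to vorinostat, where 4.25% of all genes were called (log2 fold change 1.79, standard error 0.17, adjusted p = 1.7e-04), and its interaction of 1.68 passed at an adjusted p of 0.0050.

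Downstream of the receptors, 22 genes for JAK-STAT transducers, inhibitors and receptor shedding were listed, and 20 were tested. EC359 called 0 of the 20 by edgeR and 0 by DESeq2, where 3.67% of all genes were called, with 8 at an unadjusted p under 0.05. Of these, 3 met the adjusted p in edgeR but not the fold threshold, STAT3, the transcription factor of the pathway (log2 fold change -0.58, adjusted p = 0.0028), SOCS3 (-0.79, adjusted p = 0.0032) and ADAM17, a sheddase that cleaves IL6R (0.59, adjusted p = 0.0032), chosen after their values were seen. Vorinostat called 4 of the 20, 3 higher and 1 lower, where 30.1% of all genes were called. They were PTPN1, a phosphatase that acts on JAK kinases (log2 fold change 1.70), the inhibitor SOCS3 (1.15), the adaptor GRB2 (1.10) and the transducer STAT5B (-1.64). Adding EC359 to vorinostat called 1, where 4.25% of all genes were called. This was CISH, a STAT-induced inhibitor of cytokine signalling (1.84, standard error 0.38, adjusted p = 0.0074). By the adjusted p alone, 4 of the 20 passed in edgeR. The others were SOCS3 (0.64, adjusted p = 0.0051), PTPN1 (0.63, adjusted p = 8.8e-04) and ADAM17 (0.53, adjusted p = 0.0039). All 3 were higher but under the fold threshold. CISH had 14 and 19 counts under vehicle, 3 and 13 under EC359, 39 and 53 under vorinostat and 157 and 143 under the combination. The interaction passed in 1 of the 20, SOCS3 (1.43), where 2.10% of all genes passed. SOCS3 had 38.5 and 41.0 normalized CPM under vehicle, 19.95 and 26.0 under EC359, 88.5 and 87.9 under vorinostat and 137.2 and 137.6 under the combination, with no overlap between groups.

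The genes with the patterns most like those of LIFR, LIF and IL6 were found by the Euclidean distance over the 8 libraries of log2 normalized CPM, centred on the vehicle mean, among 9754 genes of sufficient level. Closest to LIFR were CLU (0.550), HIST1H2AC (0.552), INSIG1 (0.597), CTGF (0.667) and RND2 (0.702). For IL6 they were SESN2 (0.885), NEDD4L (1.11), FOSB (1.11), INHBA (1.18) and USP53 (1.57). Those of LIF were, each farther off than the neighbour of IL6 of the same rank, CXCL5 at 1.32, PRNP at 1.73, DUSP4 at 1.91, SERPINB8 at 1.93 and HAS3 at 2.11. CXCL5, a chemokine, had mean changes on the log2 scale of 2.08 with EC359, -1.53 with vorinostat and 1.46 with both.

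Markers of other cell types were measured beside these results. The summed level of 5 leukocyte genes was 40.5 to 48.3 normalized CPM under vehicle, 120 to 203 under EC359, 73.2 to 74.1 under vorinostat and 224 to 269 under the combination. CD68 held nearly all of it, and without CD68 the other 4 summed to between 0.254 and 2.15. The defining leukocyte genes PTPRC and CD3E had at most 15 and 1 counts in a library. The 3 endothelial genes summed to at most 0.720. The summed levels of lists for the cancer cells themselves moved too. The 5 luminal genes, ERBB2 among them, summed to 97.0 to 103 normalized CPM under vehicle, 78.6 to 81.2 under EC359, 18.0 to 19.7 under vorinostat and 17.1 to 18.0 under the combination. ERBB2 held most of each sum, with group means of 99.0, 78.1, 15.3 and 12.3 in that order. ESR1, GATA3 and FOXA1 were low and went the other way. Their means were 0, 0.305 and 0.634 under vehicle and 0.792, 2.91 and 1.51 under the combination. PGR had at most 1 count in a library. The 5 mesenchymal genes summed to 4750 to 5338 under vehicle, 5726 to 6618 under EC359, 7185 to 7270 under vorinostat and 14149 to 14513 under the combination. VIM and FN1 held most of these sums, and the genes did not all move together. Under vorinostat the means of VIM, CDH2 and SNAI2 were above vehicle. Those of FN1 (from 2613 to 1958) and ZEB1 (from 83.5 to 44.6) were below it. ZEB1 was also below vehicle in the combination, at 74.6. The 4 epithelial genes summed to between 0.767 and 7.35 in all 8 libraries. The part of these lists in the results was not tested.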

How the data were processed

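RNA was measured by RNA-seq in 8 BT-549 libraries, 2 per group, named by treatment in the sample labels. Per the labels and the study's methods, the authors made single-end reads of 50 bp, mapped these with TopHat2 2.0.8b to hg19, and used HTSeq to count reads on RefSeq genes, whose version and strand setting are not given in the sources used here. The deposited values are raw read counts per gene symbol, without normalization. The 5 HTSeq summary lines were left out, and 85.1% to 88.1% of the unique alignments of a library fell on genes.

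Counts were tested with edgeR 4.0.16 in R 4.3.3 (filterByExpr by group, TMM, 1 mean per group over all 8 libraries, quasi-likelihood test) with Benjamini-Hochberg adjustment over 13694 genes. Calls needed an adjusted p under 0.01 and a log2 fold change beyond 1 in either direction, the interaction the adjusted p only. Standard errors came from dividing the size of the log2 fold change by the root of F. The procedure was tested on simulated data. RPKM used the canonical transcript lengths of GENCODE on GRCh37. Named are the 10 genes, detected family genes outside them, and of the pathway list the called genes with the 2 largest and 2 smallest changes in EC359 against vehicle, vorinostat against vehicle and the combination against vorinostat. Some genes of these lists are not reported here, and counts over the lists leave them out. For LIFR, LIF and IL6, the 5 nearest genes with an average log2 CPM of at least 3 are named. The genes and lists were chosen with earlier results of these data known. Alternatives were normalization by RLE or total counts, DESeq2 1.42.0, further filters and thresholds, a replicate block, fits on the compared groups only and leaving out each library. Motif matches were counted on both strands with Python 3.11.15.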

Additional observations from a re-analysis of the deposited data

Results flagged for a closer look

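The 4 genes listed here differed in their response to EC359 between cells with and without vorinostat, by the interaction in edgeR's quasi-likelihood test. The response of LIF was higher with vorinostat by 1.92 on the log2 scale, being 2.32 without vorinostat and 4.24 with it. That of IL6 was higher by 2.00, from 1.31 to 3.32. The response of LIFR was higher by 1.29, from -0.74 to 0.56, and that of IL6ST by 0.98, from 0.48 to 1.46. The calls of LIF and IL6 held without any single library, and those of LIFR and IL6ST were lost in 6 of the 8 such fits. None of these genes was in a group large enough for a test of a single outlying library.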

How the results depend on the processing

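Counts of the 10 genes called stayed within 1.5 times their value in all comparisons under DESeq2, RLE, total counts, other filters and thresholds, and the replicate blocks. The exceptions were EC359 against vehicle in a fit on those 4 libraries only, where 1 gene was called in place of 4, and leaving out libraries. With each library left out in turn, a group then holding a single library that is assumed to vary like the others, EC359 against vehicle called 2 to 4 (2 without vehicle library 2), vorinostat against vehicle 5 to 6, the combination 6 to 7 against vehicle, 4 against vorinostat and 5 to 6 against EC359, the interaction 2 to 5 (2 without any library of vehicle, vorinostat or the combination) and vorinostat against EC359 4 to 7 (4 without vorinostat library 2). Of the values of single genes under all alternatives, 1034 kept their direction and side of the threshold, 51 were no longer called, 7 became called and 8 changed sign. The sign changes were in values not called either way. With libraries left out in turn, CNTFR ranged from -0.0920 to 0.137 under EC359 (-0.0505 without vehicle library 2), from -0.517 to 0.304 in the combination against vorinostat, and from -0.557 to 0.265 for the interaction (0.0433 and 0.0841 without vehicle library 2 and EC359 library 1). In the combination against vorinostat IL11 ranged from -0.0464 to 0.798 and CLCF1 from -0.521 to 0.0937. The cause was not tested. IL11 could not be fitted where its filter removed it.

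The deviations of libraries of the same number had correlations from -0.173 to 0.231 between groups over 13694 genes. The highest was between vehicle and EC359. Those of the combination were negative with vehicle (-0.100), EC359 (-0.173) and vorinostat (-0.108). The numbers thus give no pairing common to all groups, and whether libraries of different groups shared a batch was not tested. The replicate block called 4 of the 10 genes in EC359 against vehicle and 6 in vorinostat against vehicle. It called 7, 4 and 5 in the combination against vehicle, vorinostat and EC359, 4 in the interaction and 7 in vorinostat against EC359, and interactions over all genes numbered 189 in place of 288. A block with the combination numbers crossed, added after seeing the data, gave 4, 6, 7, 4, 5, 5 and 7 in the same order and 477 interactions over all genes. DESeq2 gave 713 interactions over all genes. Total counts instead of TMM gave 380 genes higher and 182 lower in the combination against vorinostat, in place of 462 and 120. Depth limits IL11, whose vehicle libraries held 2 counts in all.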
